A study of Mus musculus with 24 samples.

Results

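Classical cadherins, vimentin and the transcription factors that repress the epithelial program were followed in mouse type 2 alveolar epithelial cells (AEC2s) as these cells were cultured. The group was set by name. It holds 9 genes of the 55421 in the count table: the cadherins Cdh1, Cdh2 and Cdh3, the intermediate filament gene Vim, and the transcription factor genes Snai1, Snai2, Zeb1, Zeb2 and Twist1. All 9 had a row and all 9 passed the filter on low counts.

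AEC2s came from Krt8+/+ (WT) mice and from Krt8-/- (KO) mice, which lack keratin 8, a filament protein of simple epithelia, in every tissue of the body. RNA was taken from freshly isolated cells (day 0) and after 1, 3 and 7 days of 2D culture, in which AEC2s flatten and lose surfactant genes. Each of the 8 groups of genotype and day holds 3 libraries, 1 from each of 3 batches, which the labels also number as biological replicates 1 to 3. The sample titles also carry a date-like code that the libraries of a batch share. What the code dates, and what else a batch shares, is not stated in the labels. No source used here gives the strain or age of the mice, or says whether animals were pooled within a batch. The question was whether loss of keratin 8 acts on the cells directly, apart from other lung cells.

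Cadherins are membrane proteins that join neighbouring cells through calcium-dependent contacts and hold beta-catenin, alpha-catenin and p120 at their inner face. E-cadherin, made from Cdh1, is the cadherin of epithelia. N-cadherin, from Cdh2, is found in mesenchymal cells, neurons and muscle, and P-cadherin, from Cdh3, in basal layers of stratified epithelia. In an epithelial to mesenchymal transition (EMT), Snail, Slug, ZEB and TWIST factors repress Cdh1 through E-box sequences, and cells gain vimentin filaments and N-cadherin. Such a transition in the alveolar epithelium has been studied in lung fibrosis, and partial forms that keep E-cadherin are known.

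Total counts per library ranged from 10184439 to 19483386. Levels are given as CPM, counts divided by the library total after scaling by edgeR's TMM factors and set to a common total, and tests are edgeR's quasi-likelihood F tests over 18046 genes with Benjamini-Hochberg adjustment and a threshold of 0.05. Krt8 followed the genotype labels: its level was 484.8 to 5092 CPM in the 12 WT libraries and 21.17 to 47.45 CPM in the 12 KO libraries. The 9 AEC2 markers, among them Sftpc, summed to 231000 to 309100 CPM on day 0 and to 189.2 to 289.4 CPM on day 7, so the label AEC2 describes the cells at the start and not at the end. No pair of libraries within a group was identical (24 pairs). The batches differed in markers of sex: in batch 1 the WT libraries carried Xist (62.44 to 79.54 CPM) and the KO libraries Y-linked genes (172.8 to 191.1 CPM summed) together with Xist at 5.92 to 11.95 CPM, whereas batch 2 carried Xist and batch 3 Y-linked genes, with Xist at 2.24 CPM or less, in both genotypes.

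Cdh1 (ENSMUSG00000000303, chr8:106603351-106670246, plus strand, GRCm38) had the highest level per length of the 3 cadherins in every library. In WT cells it was counted at 1189, 1072 and 1018 CPM in batches 1, 2 and 3 on day 0. It was 953.9, 594.2 and 996.5 CPM on day 1, 723.2, 1279 and 1021 CPM on day 3, and 802.1, 890.2 and 607.0 CPM on day 7. Each WT library of day 7 lay below every WT library of day 0, and the ranges of day 3 and day 0 overlapped. The log2 difference from day 0 was -0.37 (SE 0.25, adjusted p = 0.214 from edgeR) on day 1, -0.12 (SE 0.25, adjusted p = 0.709) on day 3 and -0.51 (SE 0.25, adjusted p = 0.0793) on day 7.

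In KO cells, Cdh1 was 1150, 1144 and 926.8 CPM on day 0, and 985.2, 716.4 and 750.8 CPM on day 1. It was 1156, 1112 and 1104 CPM on day 3 and 884.6, 1218 and 568.4 CPM on day 7. The KO ranges of every cultured day overlapped that of day 0. The log2 differences were -0.39, 0.07 and -0.27 on days 1, 3 and 7 (adjusted p = 0.189, 0.844 and 0.36), so that Cdh1 did not pass the test on any day in either genotype. A fit of the WT libraries of days 0 and 7 alone did place day 7 past the threshold (-0.53, adjusted p = 0.0226). The values depend on the scaling. With library totals in place of TMM factors, by which the median of all genes shifted by 0.43 to 0.60 between day 0 and a cultured day, the WT difference on day 3 changed sign to 0.48 (adjusted p = 0.0658) and the KO difference on day 3 became 0.63 (adjusted p = 0.0195).

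Cdh2 had the largest change of the 9 genes on days 3 and 7. The gene (ENSMUSG00000024304) lies on the minus strand at chr18:16588877-16809246. On day 0 it had 7, 4 and 0 reads in the WT libraries and 0 reads in each of the 3 KO libraries. In WT cells this was 0.4451, 0.4333 and 0 CPM, which became 2.938, 1.588 and 1.901 CPM on day 1, 36.34, 22.88 and 25.59 CPM on day 3, and 42.95, 51.17 and 108.6 CPM on day 7. The WT ranges of the 4 days did not overlap, and each day lay above the day before it.

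The mean WT level of Cdh2 was 7.32 times that of day 0 on day 1, 96.5 times on day 3 and 231 times on day 7. The fitted log2 differences were 2.72 (SE 0.68, adjusted p = 0.00237), 6.43 (SE 0.61, adjusted p = 6.18e-08) and 7.69 (SE 0.61, adjusted p = 5.22e-09) from edgeR. These folds rest on 11 reads on day 0. Between days 3 and 1 the WT log2 difference was 3.71 (SE 0.47, adjusted p = 1.71e-05), a comparison that does not use the day 0 libraries.

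In KO cells Cdh2 reached 1.973, 1.751 and 1.868 CPM on day 1, 26.32, 21.39 and 14.86 CPM on day 3, and 50.09, 46.18 and 121.8 CPM on day 7. Against a floor of 3 reads over the KO day 0 group, the level of Cdh2 on days 1, 3 and 7 was at least 22.8-fold, 255-fold and 890-fold higher (adjusted p = 9.07e-05, 3.11e-08 and 1.38e-09 from edgeR). The floor covers counting error only. The log2 rise from day 1 to day 3 was 3.48 (SE 0.47, adjusted p = 4.24e-05) and from day 3 to day 7 it was 1.80 (SE 0.40, adjusted p = 0.00632). The last of these calls was lost without batch 2 and without batch 3.

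Cdh3 (ENSMUSG00000061048, chr8:106510891-106557297), whose last base lies 46053 bases upstream of the first base of Cdh1 on the same strand of chromosome 8, behaved unlike its neighbour. In WT cells it was counted at 0.8902, 1.191 and 1.218 CPM on day 0 and at 0.5875, 0.3343 and 0 CPM on day 1, the lowest of the 8 groups. It then reached 5.116, 6.934 and 2.95 CPM on day 3 and 8.236, 6.303 and 4.64 CPM on day 7. The WT difference was -1.82 on day 1 (SE 0.70, adjusted p = 0.0296), 2.19 on day 3 (SE 0.58, adjusted p = 0.00306) and 2.55 on day 7 (SE 0.58, adjusted p = 0.000787). The lower level on day 1 rests on 12 reads in all in the 3 WT libraries, and the call was lost without batch 2 (adjusted p = 0.187), without batch 3 (adjusted p = 0.0559) and with library totals (adjusted p = 0.0979). In a fit of those 6 libraries alone Cdh3 did not pass the filter on low counts. The call on day 3 was lost without batch 1 (adjusted p = 0.0557) and without batch 2 (adjusted p = 0.0824).

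In KO cells Cdh3 was 0.9355, 1.012 and 0.3863 CPM on day 0, 1.435, 1.491 and 0.3114 CPM on day 1, 4.182, 3.495 and 4.648 CPM on day 3, and 8.921, 6.775 and 5.358 CPM on day 7. Days 0 and 1 overlapped (0.48, SE 0.62, adjusted p = 0.529), and days 3 and 7 lay above them (2.40 and 3.17, adjusted p = 0.00187 and 0.000118 from edgeR).

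Levels of different genes can be compared only per length of transcript, so CPM were divided by the exon length of each gene (4574 bases for Cdh1, 8066 for Cdh2 and 4384 for Cdh3). On this scale Cdh2 made up 0.0147% ± 0.0128 (SD, n = 3) of the 3 cadherins in WT cells before culture, and 0.145% ± 0.0336, 1.72% ± 0.918 and 5.06% ± 3.53 after 1, 3 and 7 days. In KO cells the share was 0 on day 0 and 0.131% ± 0.0152, 1.03% ± 0.261 and 5.31% ± 4.74 on days 1, 3 and 7. The smallest share of Cdh1 in any library was 88.4%, in KO batch 3 on day 7. The share of Cdh2 on each cultured day lay above that of day 0 in both genotypes (exact permutation test, two-sided, p = 0.1 for each of the 6 comparisons, the smallest that 3 against 3 libraries can give).

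**Figure D1:**
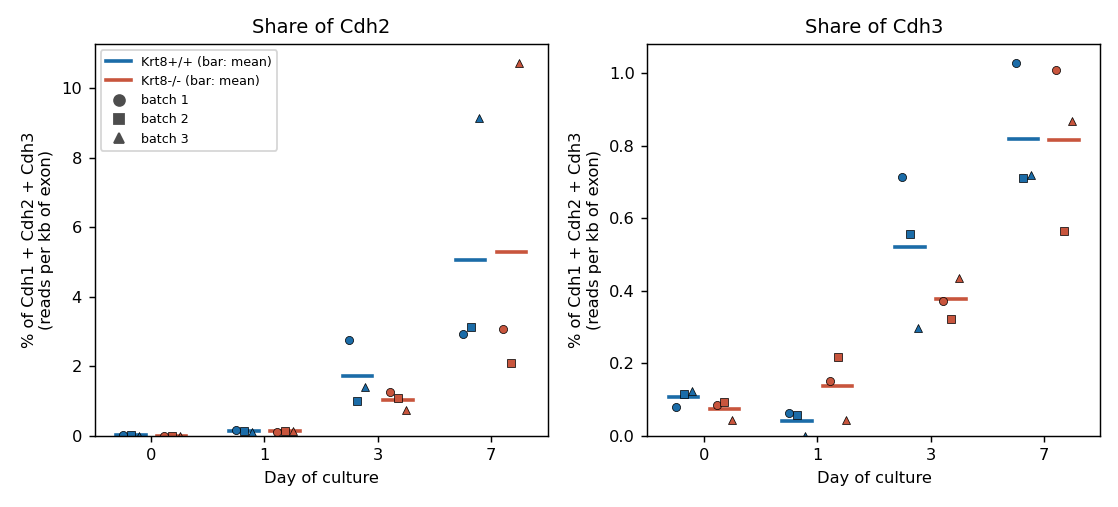
Share of Cdh2 (left) and Cdh3 (right) in the summed reads per kb of exon of Cdh1, Cdh2 and Cdh3, in percent, by day of culture. Points are libraries, with a symbol for each batch, and bars are means of 3 libraries. Cdh2 reached 9.14% (WT) and 10.7% (KO) in batch 3 on day 7 and 2.09% to 3.13% in the other 4 libraries of that day.

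Vim (ENSMUSG00000026728, chr2:13573927-13582826, plus strand) encodes the type III filament protein of mesenchymal cells. It was higher on each cultured day than on day 0 in both genotypes, and was not called between successive cultured days. In WT cells it was 45.08, 23.72 and 9.521 CPM on day 0, 244.1, 230.9 and 129.1 CPM on day 1, 584.1, 361.8 and 365.5 CPM on day 3, and 379.3, 451.1 and 1069 CPM on day 7. In KO cells it was 33.32, 21.26 and 10.2 CPM on day 0, 137.9, 217.1 and 73.33 CPM on day 1, 269.3, 347.6 and 186 CPM on day 3, and 508.5, 259.5 and 1180 CPM on day 7. No library of a cultured day overlapped the day 0 libraries of its genotype, and the ranges of days 3 and 7 overlapped in both.

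The log2 differences of Vim from day 0 in WT cells were 2.93 (SE 0.61), 4.05 (SE 0.64) and 4.58 (SE 0.65) on days 1, 3 and 7 (adjusted p = 0.000433, 2.02e-05 and 4.71e-06 from edgeR). In KO cells they were 2.72 (SE 0.61), 3.63 (SE 0.63) and 4.91 (SE 0.67), with adjusted p = 0.000888, 6.37e-05 and 2.47e-06. Per kb of exon, WT Vim on day 7 was 79.97, 95.1 and 225.3 CPM per kb in batches 1, 2 and 3, beside 175.4, 194.6 and 132.7 CPM per kb for Cdh1. KO Vim was 107.2, 54.72 and 248.8 CPM per kb, beside 193.4, 266.4 and 124.3 CPM per kb for Cdh1. In both genotypes Vim was thus below Cdh1 in batches 1 and 2 and above it in batch 3.

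**Figure D2:**
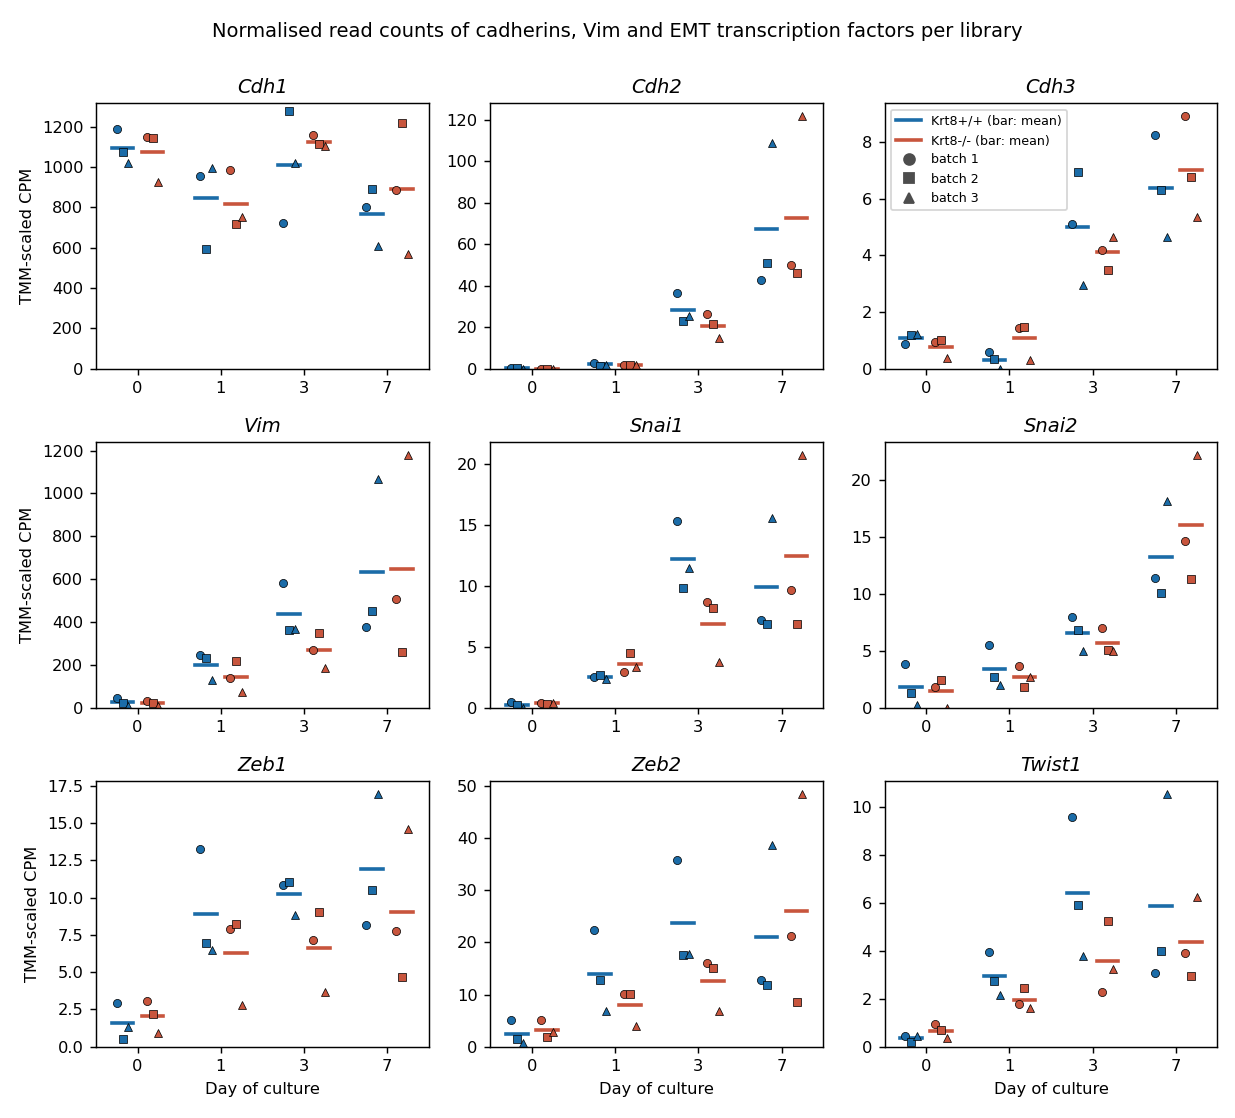
TMM-scaled CPM of the 9 genes by day of culture, 1 panel per gene with a linear axis from 0. Points are libraries (symbols for batches 1 to 3), and bars are means of the 3 libraries of a group. Cdh1 lies between 568.4 and 1279 CPM in all 24 libraries, and batch 3 (triangles) is the highest of its group on day 7 for Cdh2, Vim and the 5 transcription factors in both genotypes.

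The zinc finger factors Snail and Slug bind E-boxes of the Cdh1 promoter. Snai1 (ENSMUSG00000042821, chr2:167538195-167542814, plus strand), which encodes Snail, had 7, 2 and 0 reads in the WT libraries of day 0. Its level there was 0.4451, 0.2166 and 0 CPM, followed by 2.497, 2.675 and 2.376 CPM on day 1, 15.28, 9.785 and 11.46 CPM on day 3, and 7.215, 6.883 and 15.58 CPM on day 7. In KO cells it was 0.4318, 0.3037 and 0.3863 CPM on day 0, 2.96, 4.474 and 3.347 CPM on day 1, 8.706, 8.195 and 3.732 CPM on day 3, and 9.664, 6.852 and 20.73 CPM on day 7. Snai1 thus stood above day 0 in every cultured library of both genotypes, and WT day 7 did not lie above WT day 3.

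The log2 differences of Snai1 from day 0 were 3.27 (SE 0.62), 5.55 (SE 0.61) and 5.25 (SE 0.61) in WT cells on days 1, 3 and 7 (adjusted p = 0.000151, 1.9e-07 and 2.8e-07 from edgeR). In KO cells they were 3.22 (SE 0.57), 4.15 (SE 0.57) and 5.003 (SE 0.57), with adjusted p = 8.5e-05, 3.56e-06 and 2.44e-07. The WT rise from day 1 to day 3 passed the test (2.27, SE 0.47, adjusted p = 0.00124), and the KO value for that step was 0.93 (SE 0.45, adjusted p = 0.14). Whether these steps differ was not tested as such, and the test of genotype by day over all 4 days did not call Snai1 (adjusted p = 1).

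Snai2 (ENSMUSG00000022676, chr16:14705852-14709385, plus strand), which encodes Slug, passed the test later. In WT cells it was 3.879, 1.3 and 0.2214 CPM on day 0, 5.508, 2.675 and 2.037 CPM on day 1, 8.002, 6.804 and 4.992 CPM on day 3, and 11.43, 10.12 and 18.16 CPM on day 7. In KO cells it was 1.871, 2.43 and 0 CPM on day 0, 3.677, 1.815 and 2.725 CPM on day 1, 6.992, 5.062 and 5.0 CPM on day 3, and 14.64, 11.29 and 22.2 CPM on day 7. Days 0 and 1 overlapped in both genotypes and did not pass the test (0.84 and 0.95, adjusted p = 0.337 and 0.302).

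Snai2 was above day 0 on day 3 (WT 1.79, SE 0.72, adjusted p = 0.0404, and KO 2.01, SE 0.74, adjusted p = 0.0276, from edgeR) and on day 7 (WT 2.79, SE 0.73, adjusted p = 0.0025, and KO 3.504, SE 0.76, adjusted p = 0.000487). The WT call on day 3 was lost without batch 2 (adjusted p = 0.209). The KO call on day 3 was lost without batch 1 (adjusted p = 0.0977), without batch 2 (adjusted p = 0.067) and in a fit of the 6 libraries alone (adjusted p = 0.0535).

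The large zinc finger and homeodomain factors ZEB1 and ZEB2 form a loop of mutual repression with microRNAs of the miR-200 family. Zeb1 (ENSMUSG00000024238) lies on the plus strand at chr18:5591860-5775467 and Zeb2 (ENSMUSG00000026872) on the minus strand at chr2:44983632-45117395. Zeb1 in WT cells was 2.925, 0.5416 and 1.329 CPM on day 0, 13.29, 6.937 and 6.518 CPM on day 1, 10.82, 11.02 and 8.85 CPM on day 3, and 8.168, 10.53 and 16.97 CPM on day 7. Zeb1 in KO cells was 3.094, 2.227 and 0.9271 CPM on day 0, 7.893, 8.235 and 2.802 CPM on day 1, 7.129, 9.039 and 3.662 CPM on day 3, and 7.777, 4.672 and 14.61 CPM on day 7. Zeb1 reached most of its rise by day 1 and its days 1, 3 and 7 overlapped in both genotypes. In KO cells days 0 and 1 overlapped as well (2.802 CPM in batch 3 on day 1 and 3.094 CPM in batch 1 on day 0).

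The log2 differences of Zeb1 from day 0 were 2.41, 2.61 and 2.82 in WT cells (SE 0.58 each, adjusted p = 0.00155, 0.00073 and 0.000304 from edgeR). In KO cells they were 1.59, 1.66 and 2.11 (SE 0.57, 0.56 and 0.57, adjusted p = 0.0237, 0.0177 and 0.00314). The KO calls were each lost when a batch was left out: on day 1 without batch 1 (adjusted p = 0.0584) or 2 (adjusted p = 0.114), on day 3 without batch 2 (adjusted p = 0.105), and on day 7 without batch 3 (adjusted p = 0.0739). Zeb1 shares 198 exonic bases with Gm10125 on the other strand, which had 33 reads in all libraries against 2476 for Zeb1.

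Zeb2 in WT cells was 5.15, 1.516 and 0.6643 CPM on day 0, 22.33, 12.7 and 6.79 CPM on day 1, 35.68, 17.63 and 17.76 CPM on day 3, and 12.73, 11.86 and 38.64 CPM on day 7. Zeb2 in KO cells was 5.181, 1.822 and 2.781 CPM on day 0, 10.05, 10.11 and 3.97 CPM on day 1, 16.11, 15 and 6.76 CPM on day 3, and 21.27, 8.488 and 48.41 CPM on day 7. The KO libraries of days 0 and 1 overlapped, and those of the other cultured groups lay above day 0. Zeb2 shares 653 exonic bases with the antisense gene Zeb2os, which had 43 reads in all libraries against 4964 for Zeb2, and whether strand was used in counting is not given in the sources used here.

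The log2 differences of Zeb2 from day 0 were 2.42 (SE 0.72), 3.18 (SE 0.73) and 3.02 (SE 0.73) in WT cells (adjusted p = 0.00787, 0.00101 and 0.00135 from edgeR). In KO cells day 1 did not pass the test (1.28, SE 0.71, adjusted p = 0.137), and days 3 and 7 did (1.93 and 2.98, adjusted p = 0.0264 and 0.00134). Without batch 2 the calls on WT day 1 and KO day 3 were lost (adjusted p = 0.0567 and 0.168).

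Twist1 (ENSMUSG00000035799, chr12:33957671-33959829, plus strand) encodes a basic helix-loop-helix factor of mesoderm and cranial mesenchyme. In WT cells it was 0.4451, 0.2166 and 0.4428 CPM on day 0, 3.966, 2.758 and 2.173 CPM on day 1, 9.576, 5.897 and 3.801 CPM on day 3, and 3.063, 3.981 and 10.54 CPM on day 7. In KO cells it was 0.9355, 0.7087 and 0.3863 CPM on day 0, 1.794, 2.464 and 1.635 CPM on day 1, 2.262, 5.243 and 3.239 CPM on day 3, and 3.889, 2.959 and 6.251 CPM on day 7. Every cultured library stood above the day 0 libraries of its genotype. On day 0 Twist1 had 13 reads in all in WT and 25 in KO libraries, which limits its folds.

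The log2 differences of Twist1 were 2.95, 4.06 and 3.93 in WT cells (SE 0.58 each, adjusted p = 0.000236, 5.9e-06 and 6.78e-06 from edgeR). In KO cells they were 1.53 (SE 0.54), 2.39 (SE 0.53) and 2.67 (SE 0.53), with adjusted p = 0.0224, 0.000763 and 0.00021. The KO call on day 1 was lost without batch 2 (adjusted p = 0.132) and without batch 3 (adjusted p = 0.0553).

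Snai1 and Twist1 were both under 1 CPM on day 0 and were higher on each cultured day in both genotypes. The 250 bases before their start sites are shown here because both windows end where the annotated gene begins. They are from RefSeq on GRCm38.p6, plus strand, at chr2:167537945-167538194 for Snai1 and chr12:33957421-33957670 for Twist1. Capitals mark matches, on either strand, to an E-box of the kind bound by Snail and ZEB factors, a TATA box or a CCAAT box.
Snai1: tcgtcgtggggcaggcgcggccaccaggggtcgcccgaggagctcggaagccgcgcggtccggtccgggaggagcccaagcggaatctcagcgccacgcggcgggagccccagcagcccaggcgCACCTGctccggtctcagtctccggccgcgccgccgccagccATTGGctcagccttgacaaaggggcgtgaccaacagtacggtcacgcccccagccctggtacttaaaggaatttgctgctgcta
Twist1: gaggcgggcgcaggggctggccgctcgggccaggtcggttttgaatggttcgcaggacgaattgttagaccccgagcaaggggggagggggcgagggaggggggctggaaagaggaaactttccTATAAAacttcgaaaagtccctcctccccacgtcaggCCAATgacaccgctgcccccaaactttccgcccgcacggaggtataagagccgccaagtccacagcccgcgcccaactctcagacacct

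The E-box was searched on both strands as CAGGTG. The TATA box was searched as TATAAA in the same way. The CCAAT box was searched by its name, and an AP-1 site as TGANTCA.

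The Snai1 window held the E-box on its minus strand, from -126 to -121 relative to the start site, and a CCAAT box from -84 to -80. The Twist1 window held TATAAA from -126 to -121 and CCAAT from -89 to -85. Of 32851 windows of this length in the table, 17.2% held the E-box, 12.4% TATAAA, 33.8% CCAAT and 6.75% the AP-1 site. The table held 4 of the 9 genes, with Vim and Zeb2 besides these. A match describes the letters and not a bound site.

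Counted over the 9 genes, 6 were higher on day 1 in WT cells (Cdh2, Vim, Snai1, Zeb1, Zeb2 and Twist1), where 26.2% of all genes tested were higher, and 1 was lower (Cdh3), where 28.5% were lower. On days 3 and 7, 8 of 9 were higher and 0 lower in WT cells, beside 26.1% and 28.6% of all genes higher and 27.8% and 30.2% lower. In KO cells 5 were higher on day 1 (Cdh2, Vim, Snai1, Zeb1 and Twist1), beside 23.7% of all genes, and 0 lower, beside 26.9%. On days 3 and 7 the KO count was 8 higher and 0 lower, beside 25.4% and 28.6% higher and 26.6% and 29.9% lower. Cdh1 was the gene not called. The comparisons of days within a genotype share the day 0 libraries. Without batch 2, 3 genes were called higher on day 1 and 5 on day 3 in KO cells. Cdh2 and Snai1 had fewer than 10 reads in each of the 6 day 0 libraries, and Twist1 in 5 of them.

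Between successive cultured days fewer genes moved. From day 1 to day 3 in WT cells, Cdh2, Cdh3 and Snai1 were higher (14.4% of all genes were higher and 11.9% lower). In KO cells Cdh2 and Cdh3 were higher on this step (13.4% and 10.2%), of which Cdh2 alone was called without batch 1 or without batch 2, and Snai1 was called as well without batch 3. From day 3 to day 7, 0 of 9 were called in WT cells (3.11% higher and 3.47% lower over all genes), with 1 at an unadjusted p under 0.05 and 1, Cdh2, by DESeq2. In KO cells Cdh2 was higher on this step (4.40% and 6.15%).

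**Figure D3:**
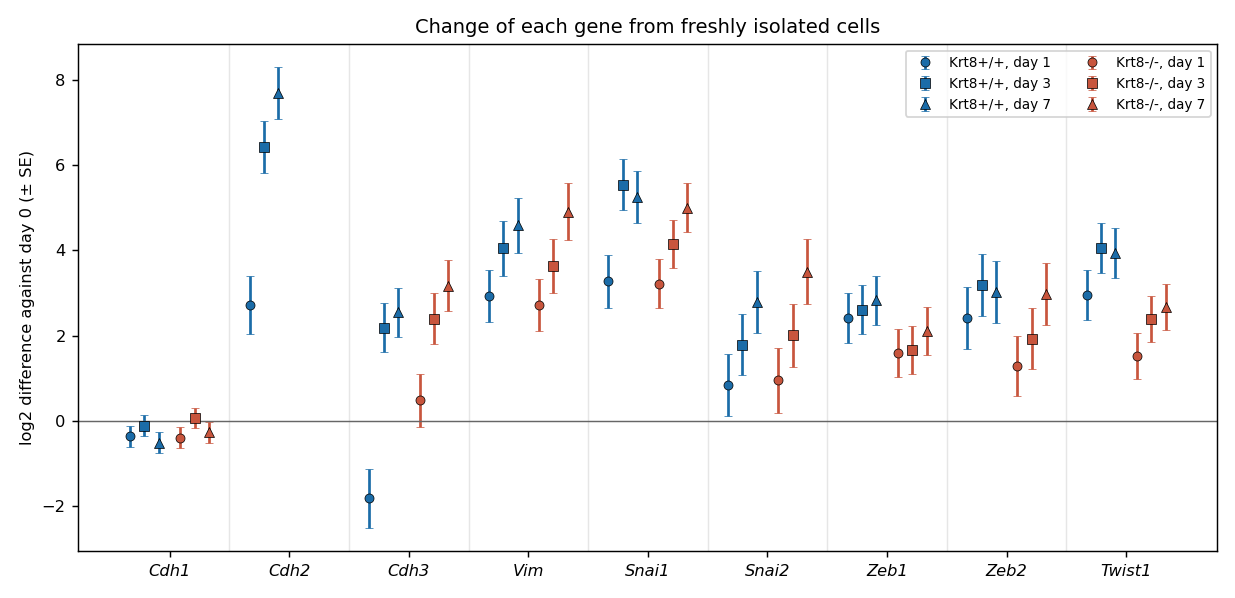
Log2 difference from day 0 for each gene (edgeR, points with SE), by genotype (color) and by cultured day (symbol). Cdh1 lies between -0.51 and 0.07, and the other genes lie above 0 except WT Cdh3 on day 1 (-1.82). KO values of Cdh2 are left out because its day 0 libraries held no read.

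Between genotypes, no member was called. In KO against WT cells, 0 of 9 genes passed the edgeR threshold on day 0 (0.0277% of all genes did), day 1 (0.0166%), day 3 (0.0166%), day 7 (0.0166%), over days 1 to 7 with days 1, 3 and 7 weighted by the time they span (0.0277%), or by the genotype by day test (0.00554%). At an unadjusted p under 0.05 there were 1, 1, 0, 0, 1 and 0 of 9 genes, and DESeq2 called 0 in each. Batch 1 sets KO libraries with Y-linked reads against WT libraries without them in these comparisons. Without it 0 of 9 genes were called as well. With 0 called at the start and fewer libraries left, that count cannot show what the mismatch does, and its part was not tested. The 4 basal and airway markers, mostly Scgb1a1 of club cells, summed to 11250 to 16410 CPM in KO and 3980 to 9286 CPM in WT cells on day 0, and their part in the genotype values was not tested.

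The 3 genes at an unadjusted p under 0.05 were Cdh2 on day 0, Cdh3 on day 1 and Twist1 over days 1 to 7. Cdh2 on day 0 was 11 reads in WT against 0 in KO cells (adjusted p = 1 from edgeR). Cdh3 on day 1 was higher in KO cells in 3 of 3 batches (log2 difference 1.81, 95% CI 0.38 to 3.24, adjusted p = 1 from edgeR). Twist1 over days 1 to 7 was lower in KO cells in 3 of 3 batches (-0.66, 95% CI -1.26 to -0.05, adjusted p = 1 from edgeR).

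The intervals of the other genes over days 1 to 7 bound the size of a difference that these libraries could miss. For Cdh1 the log2 difference was 0.14 (95% CI -0.18 to 0.46), the narrowest of the 9. For Cdh2 it was -0.22 (95% CI -0.74 to 0.31) and for Cdh3 0.21 (95% CI -0.49 to 0.90). For Vim, the gene of the other filament system, it was -0.42 (95% CI -1.15 to 0.30). Values for the factors were -0.22 for Snai1 (95% CI -0.78 to 0.35), -0.07 for Snai2 (95% CI -0.94 to 0.80), -0.53 for Zeb1 (95% CI -1.21 to 0.15) and -0.48 for Zeb2 (95% CI -1.33 to 0.36). With the days so weighted, Cdh2, Vim, Snai1, Zeb1, Zeb2 and Twist1 were each lower in KO cells in 3 of 3 batches. Snai2 was lower in 2 of 3, and Cdh1 and Cdh3 in 1 of 3, and none of the 9 was called. The single days differed in sign. Snai1 was higher in KO cells in 3 of 3 batches on day 1. On day 7 Cdh3 and Snai2 were higher in 3 of 3, and Cdh1, Cdh2, Vim, Snai1 and Zeb2 in 2 of 3. Zeb1 was lower on that day in 3 of 3 and Twist1 in 2 of 3. The share of all genes lower in 3 of 3 batches was not computed.

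**Figure D4:**
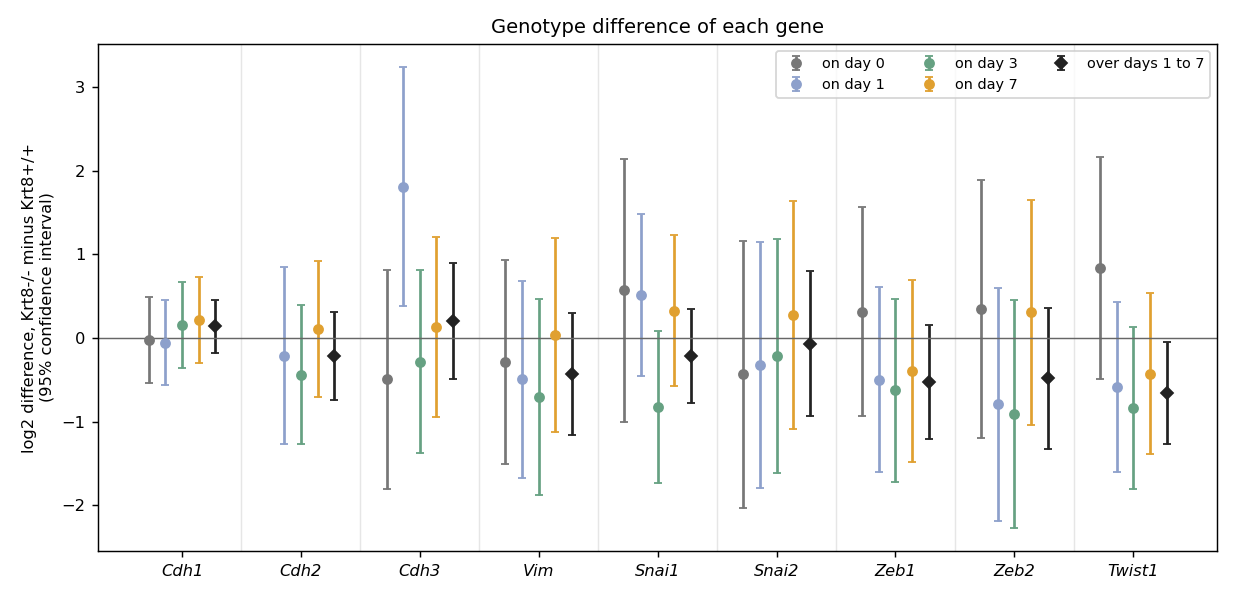
Log2 difference of KO minus WT cells for each gene on each day and over days 1 to 7 (edgeR, points with 95% confidence intervals). Intervals of the zinc finger and Twist1 factors span more than 1 log2 unit on each single day, and those of Cdh1 are the narrowest. Cdh2 on day 0 is left out because the KO libraries held no read.

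The order of the group means differed between genes. For Cdh2 the 8 groups fell into 4 pairs by day: 0 and 0.293 CPM on day 0, 1.86 and 2.14 on day 1, 20.9 and 28.3 on day 3, and 67.6 and 72.7 on day 7. The genotypes of a pair overlapped in range and the pairs did not overlap with each other. Vim rose from 21.6 and 26.1 CPM on day 0 to 633 and 649 CPM on day 7, and its neighbouring groups overlapped except day 0 against day 1 and KO day 3 against WT day 3. For Cdh1 all neighbours in the order overlapped, from 766 ± 145 CPM (WT day 7) to 1124 ± 28.1 CPM (KO day 3). For Zeb1, Zeb2 and Twist1 the day 0 groups were the lowest. The 6 cultured groups, ranked over both genotypes together, did not follow the order of days, with all cultured neighbours overlapping. Within a genotype the means did follow the days for Zeb1 in both genotypes, and for Zeb2 and Twist1 in KO cells only.

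Other genes of these programs were taken from lists. Of 12 genes of the mesenchymal program, 12 were higher on day 7 in both genotypes, with a median log2 difference of 7.00 in WT and 6.96 in KO cells against a median of 0 over all genes tested. Fibronectin (Fn1) rose from 37.0 to 5227 CPM in WT cells (7.12, SE 0.72, adjusted p = 4.59e-08) and the matrix protein gene Tnc from 1.94 to 473 CPM (7.80, SE 0.93, adjusted p = 4.55e-07). Smooth muscle actin (Acta2) was 14.0 and 15.3 CPM in WT cells on days 0 and 1, and 421 and 1678 CPM on days 3 and 7. On day 1, 7 of the 12 were higher and Sparc was lower in WT cells.

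Of 10 other transcription factors tied to EMT, 9 were tested and 7 were higher on day 7 in each genotype (median 2.01 in WT and 2.28 in KO cells). Sox9 rose from 0.623 to 71.6 CPM (6.88, SE 0.48, adjusted p = 2.89e-10) and Prrx1 from 0.499 to 41.2 CPM (6.18, SE 0.72, adjusted p = 3.25e-07) in WT cells. Of 12 epithelial regulators and adhesion genes, 7 were lower on day 7 in each genotype, and 0 were higher in WT and 1 in KO cells. The medians were -0.76 and -0.72. The largest fall was that of the serine protease gene Prss8, from 199 to 12.3 CPM (-4.01, SE 0.25, adjusted p = 7.05e-11). The repressors of the mesenchymal program Ovol1, Ovol2 and Grhl2 were lower (-2.73, -1.25 and -1.30 in WT cells). Epcam was lower on day 7 (-0.60, SE 0.25, adjusted p = 0.0425), while the splicing factor gene Esrp1 was 67.5 CPM on day 0 and 68.3 CPM on day 7.

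Of 7 genes of the catenin complex, 4 were higher and 2 lower on day 7 in each genotype (medians 0.70 and 0.84). Ctnnd1, which encodes p120 and holds cadherins at the membrane, rose from 158 to 636 CPM in WT cells (2.01, SE 0.22, adjusted p = 1.31e-07). Beta-catenin (Ctnnb1) fell from 1554 to 830 CPM (-0.91, adjusted p = 0.000345). Vinculin (Vcl), which links the complex to actin under tension, rose from 140 to 734 CPM (2.39, adjusted p = 7.41e-09).

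Among 20 other cadherins named Cdh with a number, 10 passed the filter. On day 7, 5 were higher and 2 lower in both genotypes (medians 2.26 in WT and 1.85 in KO cells, the same with genes at 0 on day 0 set to their bound). Cdh16, the cadherin of kidney and thyroid epithelium, fell from 145 to 1.07 CPM in WT cells (-7.03, SE 0.73, adjusted p = 7.1e-08). Cdh11, of osteoblasts and fibroblasts, rose from 20.7 to 122 CPM (2.53, SE 0.62, adjusted p = 0.00146), and Cdh6 from 0.513 to 11.5 CPM (4.48, SE 0.85, adjusted p = 0.000165). Cdh5, the endothelial cadherin, was at or below 0.586 CPM in every group mean and was not tested.

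Of 10 other non-keratin intermediate filament genes, 8 were tested. On day 7, 5 were higher and 1 lower in each genotype, with a median of 1.89 in WT cells (1.87 with Nefm, at 0 on day 0, set to its bound) and 1.67 in KO cells. Nestin (Nes) rose from 0.396 to 251 CPM in WT cells (8.93, SE 0.50, adjusted p = 2.17e-11) and desmin (Des) from 3.25 to 58.6 CPM (4.11, adjusted p = 6.56e-05), whereas synemin (Synm) fell from 18.3 to 1.85 CPM (-3.30, SE 0.41, adjusted p = 6.75e-07). No gene of these lists was called between genotypes, on any day or over days 1 to 7.

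Markers of other cell types were summed in each library, because such cells express several of these genes. In bulk RNA, more cells of a type and more RNA per cell cannot be told apart. The 9 fibroblast and pericyte markers summed to 994.6, 506.8 and 295.6 CPM in WT cells on day 0, in the same order over batches as Vim. They summed to 260.9, 164.5 and 142.9 CPM on day 1, again in the order of Vim, although Vim was higher than on day 0. On day 3 they summed to 1006 to 1790 CPM and on day 7 to 900.3, 1007 and 1913 CPM. The order over batches was that of Vim on day 7 as well. On day 3 the sum was lowest in batch 3 (1006 CPM) and Vim in batch 2 (361.8 CPM).

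In KO cells the fibroblast sum was 333.1 to 731.9 CPM before culture and 98.16 to 183.0 CPM after 1 day. It was 632.5 to 1309 CPM after 3 days and 959.7, 842.1 and 3181 CPM after 7 days. On each of these days it had the same order over batches as Vim in KO cells. All 9 of these markers were detected in each group except Thy1, at 0 on day 1 in KO cells. The fibroblast genes did not move as one between days 0 and 7 in WT cells. Mean Col1a1 rose from 53.9 to 522 CPM, Col1a2 from 66.2 to 557 CPM and Pdgfrb from 4.02 to 59.2 CPM. Pdgfra went from 19.7 to 29.7 CPM and Thy1 from 0.0848 to 2.44 CPM. Col3a1 fell from 236 to 80.3 CPM and Dcn from 211 to 18.5 CPM. Lum went from 3.44 to 1.08 CPM and Tcf21 from 4.27 to 2.98 CPM.

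The 4 smooth muscle markers summed to 3.875 to 20.47 CPM on day 0 and to 399.9 to 865.3 CPM on day 7, over both genotypes. The 4 mesothelial markers summed to 66.31 to 204.9 CPM on day 0 and to 878.7 to 2454 CPM on day 7, when nearly all came from Msln, while Upk3b went from 61.6 to 1.40 CPM and Wt1 from 2.80 to 0.748 CPM in WT cells. The 7 endothelial markers summed to 1.869 to 4.784 CPM on day 7, with Pecam1, Cldn5, Tie1 and Emcn at 0 in WT cells. The 8 macrophage markers summed to 145.1, 68.56 and 19.71 CPM in WT cells on day 0 and to 425.1, 251.7 and 48.28 CPM on day 1, and in KO cells to 77.72, 69.45 and 12.52 CPM and to 244.5, 203.5 and 41.73 CPM. They were thus higher on day 1 in every batch, and in WT cells they followed the same order over batches as Vim and Zeb2 on that day. In KO cells the order differed. The macrophage sum was highest in batch 1, whereas Vim (217.1 CPM) and Zeb2 (10.11 CPM) were highest in batch 2. On days 3 and 7 the macrophage markers summed to 10.54 to 228.4 CPM, with batch 3 the lowest throughout. Lymphocyte and neutrophil markers summed to at most 18.12 and 4.896 CPM. Des stands in the smooth muscle list and among the filament genes above, and Cdh11 in both the mesenchymal and the cadherin list. The part of these cells in the values of Vim, Cdh2 and the transcription factors was not tested.

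Batch 3 stood apart on day 7 for most of the 9 genes. Of the 9 genes, 7 were highest in batch 3 in WT cells and 7 in KO cells on that day, all but Cdh1 and Cdh3, and both of these were lowest there. Batch 3 had been the lowest library for 6 of 9 genes on day 0 in each genotype. These ranks were not counted over all genes, so whether they are particular to the 9 cannot be told. Without batch 3 at any day, 8 of 9 genes were called higher on day 7 in WT cells and 7 of 9, without Zeb1, in KO cells.

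**Figure D5:**
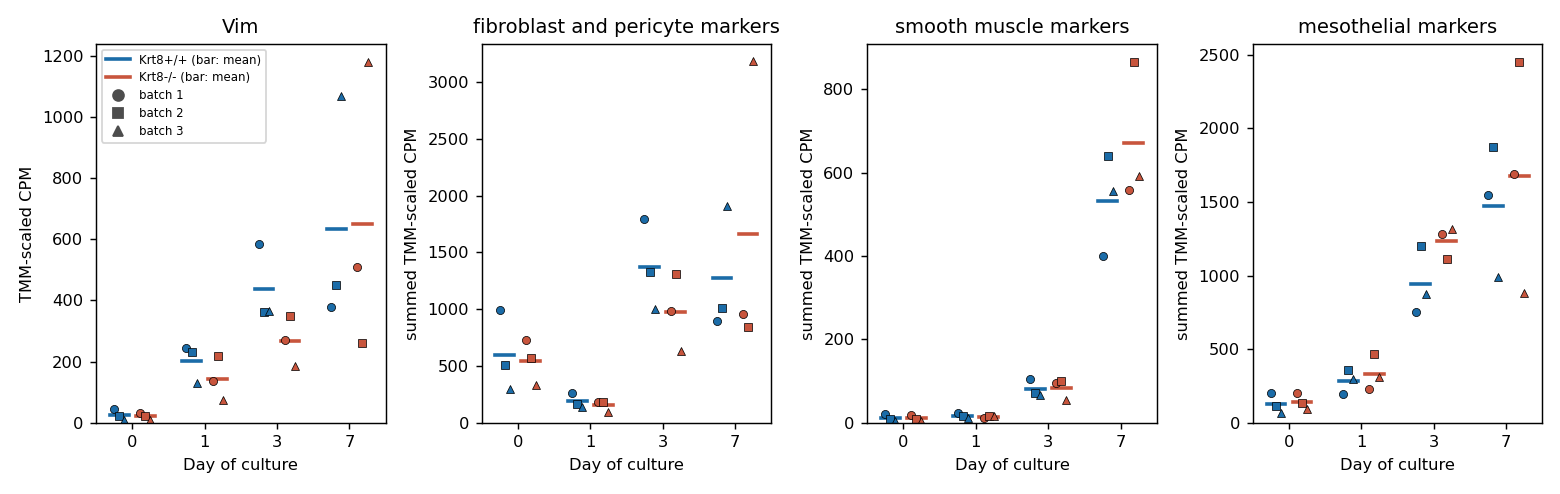
Vim and the summed markers of fibroblasts and pericytes (9 genes), smooth muscle (4 genes) and mesothelium (4 genes), in TMM-scaled CPM by day of culture. Points are libraries (symbols for batches) and bars are means. Fibroblast sums were lower on day 1 (98.16 to 260.9 CPM) than on day 0 (295.6 to 994.6 CPM), although mean Pdgfra was higher in both genotypes. Vim was higher on day 1 than on day 0, and on day 1 it had the order over batches of the fibroblast sum in both genotypes. Batch 3 has the highest Vim and the highest fibroblast sum on day 7.

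The genes whose log2 CPM was most like that of each member over the 24 libraries are given as a description, since the libraries share days and batches. Closest to Cdh1 were Patj, a tight junction scaffold (Pearson r = 0.862), Plekha6 (0.854) and Mfsd6 (0.836). Closest to Cdh2 were the matrix gene Fbln2 (r = 0.993), Ehbp1l1 (0.983) and Fam198b (0.982). Vim was followed by the receptor tyrosine kinase gene Axl (r = 0.986), Cep170 (0.985) and Prrx1 (0.984), and Vim was among the 3 genes closest to Zeb2 (0.939). Closest to Snai1 was Foxs1 (r = 0.976), to Snai2 Rftn1 (0.945), to Zeb1 Nkd2 (0.943), to Twist1 Ccdc88a (0.943) and to Cdh3 Ctc1 (0.951).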

How the data were processed

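RNA of AEC2s of 2 genotypes was sequenced on 4 days of culture, in 24 libraries. The deposited values are unnormalized counts of reads for each gene, in 1 table of 55426 rows made by the authors, of which 5 stand for reporter genes with 0 counts. The submitters' processing notes name cutadapt 2.3, STAR 2.7.8a, RSEM 1.3.3 and GRCm38, with no role given. Symbols, exon lengths and coordinates came from GENCODE M21 and the promoter windows from RefSeq (GRCm38.p6), each matched to the 9 genes by identifier or symbol.

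Low genes were dropped by filterByExpr at a min.count of 10 and a min.total.count of 15, and the others were scaled by TMM and fitted in R 4.3.3 with edgeR 4.0.16 (quasi-likelihood, 8 groups, 16 residual degrees of freedom), with adjustment over all 18046 genes. DESeq2 1.42.0, other scalings, no filter, batch as a block, fewer libraries and each batch left out were alternatives. Log2 CPM for likeness used a prior count of 2, over tested genes of at least 1 CPM, and the 3 most alike were taken for each gene. Of the lists, genes with the largest differences past 0.05 on WT day 7 were named first, and other list genes were named for their role. The values of 1 list gene are not reported here. The scripts were tested on simulated data.

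The labels give each library a batch and a biological replicate number, which coincide, so the number pairs libraries. Correlations of paired deviations from group means were 0.0573 to 0.548 over 12 genotype pairs and 0.0295 to 0.365 over 18 day pairs. P values measure the spread between batches. The genes and lists were chosen with earlier results of these data known. Total counts ran from 10184439 to 19483386 a library.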

Additional observations from a re-analysis of the deposited data

How the results depend on the processing

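In the comparisons with day 0 and between genotypes on single days or over days 1 to 7, the 9 genes gave 99 values, of which 44 were called. Their 439 values under alternatives held 0 reversals and 17 losses of the call, 15 of them with a batch left out and 9 without batch 2. The fit with batch as a block (replicate block) changed none of the 99 calls, called the same genes between successive days and by genotype by day, and kept 6 genes higher and 1 lower on WT day 1. Counts and shares moved in 14 of 295 cases. Small changes of a count were not taken as moves. Higher genes on WT day 1 were 5 without batch 2. Those on WT day 3 were 7 without batch 1 and 6 without batch 2. Scaling cancels in the share of Cdh2 within a library, so settings that change only the scaling could not move it. The count of lower genes on WT day 1 was 0 with library totals alone, 0 with only the groups compared, where Cdh3 was not tested, and 0 to 1 with a batch left out. Lower genes on WT day 7 were 1 with only the groups compared. Higher genes from WT day 3 to 7 were 1 with the DESeq2 test and 1 with no filter on low counts. With a batch left out, KO counts of higher genes ranged from 3 to 4 on day 1, 5 to 8 on day 3, 1 to 3 from day 1 to 3, and 0 to 1 from day 3 to 7, the last being 2 with only the groups compared.

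The values that changed sign were not called in either setting. For Cdh1 with library totals they were 0.08444 on WT day 1, 0.48 on WT day 3, 0.08389 on KO day 1 and 0.15 on KO day 7, and with upper quartile scaling 0.000147 between genotypes on day 0. With a batch left out, Cdh1 ranged from -0.26 to 0.14 on WT day 3 and from -0.017 to 0.19 on KO day 3. Between genotypes it ranged from -0.095 to 0.023 on day 0, from -0.17 to 0.14 on day 1 and from -0.054 to 0.35 on day 3. The other ranges between genotypes were -0.32 to 0.045 for Cdh2 on day 1, -0.65 to 0.11 for Cdh3 on day 3, -0.016 to 0.36 for Cdh3 over days 1 to 7, -0.11 to 0.21 for Vim on day 7, -1.18 to 0.59 for Snai2 on day 0 and -0.11 to 0.73 for Zeb1 on day 0. The cause was not tested. Low reads on day 0 limit the folds of Cdh2, Snai1 and Twist1. Over all genes tested, with a batch left out, the 4740 genes called from WT day 1 to 3 became 2614 to 3085 (2879 with only the groups compared), the 1188 from WT day 3 to 7 became 325 to 572, the 4252 from KO day 1 to 3 became 1842 to 2691 and the 1903 from KO day 3 to 7 became 834 to 969. Between genotypes, the 5 genes called over days 1 to 7 became 17 with the DESeq2 test, 11 with no filter and 9 with the replicate block, and the 5, 3 and 3 genes on days 0, 1 and 3 became 9, 5 and 8 with the DESeq2 test, none of them among the 9 genes. With no filter the counts on days 0 and 1 were 10 and 6. With a batch left out they were as low as 2 on day 0 and as high as 5 on days 1, 3 and 7. The 1 gene called by genotype by day became 3 with the DESeq2 test, 2 with no filter and 0 with a batch left out.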
